A study of Glycine max with 72 samples.

Results

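The 200 genes described here had the steepest increase in transcript level between 8 h of imbibition and radicle emergence in germinating soybean (Glycine max) seeds. They were selected among 56044 gene models by level alone. Read counts were divided by the library total and multiplied by 1000000 (CPM, a level relative to library size) and averaged at each stage over the lines 2MWT, 2MWT-N and 2MWT-L, all 3 of normal phytic acid content. Of the 10864 genes that averaged at least 20 CPM at radicle emergence, the 200 with the highest log2 ratio of that level to the higher of the dry seed and imbibed seed levels were kept, with 1 CPM added to each level. The rule used 26 libraries, and the other 5 lines took no part in it. Because the genes were chosen by their levels in 2MWT, 2MWT-L and 2MWT-N, values from those lines are given as a description without a test.

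The study sequenced mRNA from 8 soybean lines at 3 stages, with 3 replicates of 10 seeds each and 72 libraries in all. Stage 1 was the dry seed, stage 2 the seed imbibed for 8 h on filter paper in the dark, and stage 3 the seed whose radicle had emerged. Before germination, seeds of stages 2 and 3 were sterilized in hypochlorite, washed and dried overnight, which the paper does not report for dry seeds. The seed coat and radicle were removed before freezing at stages 2 and 3, and dry seeds were milled whole. Stage 3 values therefore come from seeds without the emerged radicle. The dry seed differs from the later stages in sterilization and washing, tissue and grinding as well as in time.

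Low phytic acid (lpa) lines carried mutations in the myo-inositol phosphate synthase gene MIPS1 or in the paired ABC transporter genes MRP-L and MRP-N. Line 1mlpa carried mips1, and its comparator 1MWT carried none of the mutations. Line 3mlpa carried mips1, mrp-l and mrp-n together, against 3MWT with none. Line 2mlpa carried mrp-l and mrp-n, and its near isogenic comparators were 2MWT with neither mutation, 2MWT-L with mrp-n alone and 2MWT-N with mrp-l alone. Each mutant genotype was represented by 1 line, so a difference between a low and a normal phytic acid line cannot be told apart from other differences between these lines. All seed came from the same field harvest. By the paper, 3mlpa and 3MWT have the same parents as 2mlpa and its comparators. Lines 1mlpa and 1MWT come from a different cross that shares 1 of these parents. The replicates were separate batches of seeds of 1 line, and p-values measure the spread between such batches. For 1MWT and 1mlpa the short sample names could also denote parents of the crosses.

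During imbibition a dry seed resumes respiration and translation from stored components, and the emergence of the radicle marks the end of germination proper. The cotyledons then pass from storage organ to source organ: oil, protein and phytate reserves are broken down, sugars and phosphate are exported to the axis, and plastids begin to prepare for greening. An Arabidopsis match or a transcription factor family was given by the study's supplementary annotation for 53 of the 200 genes. That annotation covers genes the study singled out on these samples, mostly for a difference between lpa and normal lines, so the annotated genes are not a random draw from the 200. The other 147 are described by identifier.

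The 71 libraries with usable depth held 20295984 to 39759526 counts (median 28412327). Library 2MWT-N stage 2 replicate 1 held 12679 counts and was left out of all levels given here. In dry seed library 3MWT replicate 2, 24686 genes were detected, fewer than in any other library of usable depth. No replicate pair agreed within counting noise. Compared with CPM, the TMM scaling of the tests moved stage 3 against stage 2 by -0.62 to -0.21 stage 3 against stage 1 by -1.83 to -1.46 and stage 2 against stage 1 by -1.42 to -0.87 on the log2 scale, so fold changes below are relative to the bulk of genes and smaller than CPM ratios. Between lpa and normal lines it moved them by 0.02 to 0.34. Any fold counts transcripts as a share of the library, and a change in the number of cells of a type cannot be told apart from a change in RNA per cell.

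In the lines used for selection the members were near silent in the dry seed and low at 8 h. Their median level was 0.323 CPM at stage 1, 3.64 CPM at stage 2 and 58.8 CPM at stage 3. The fold of the rule ran from 8.21 to 65.9 with a median of 11.9. Few members were strictly off before emergence: 136 averaged under 1 CPM in the dry seed, 22 at 8 h and 21 at both stages, and 194 were already higher at 8 h than in the dry seed. At emergence 63 genes averaged at least 100 CPM, 6 at least 1000 CPM and 82 under 50 CPM, and the 5 with the highest CPM made up 28% of the summed level. At the edge of the set, Glyma.20G204000, which matches the Arabidopsis phosphate transporter PHT1;7, had a rule value of 3.06 and Glyma.07G253700 of 3.04, and the first genes left out, Glyma.02G135400 and Glyma.18G263900, had 3.04 and 3.02.

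As a share of all counts the 200 genes took 0.0393 to 0.0720% in dry seed libraries, 0.107 to 0.402% at 8 h and 1.82 to 3.88% at emergence, over all 8 lines. The ranges of the 3 stages did not overlap. Between 19 and 92 members had no count in a dry seed library, compared with 0 to 5 at 8 h and 0 to 1 at emergence. Among the lines that took no part in the selection, the stage 3 share was 3.54% ± 0.09 in 1MWT, 2.78% ± 0.12 in 1mlpa, 3.23% ± 0.30 in 3MWT, 2.11% ± 0.44 in 3mlpa and 3.46% ± 0.37 in 2mlpa (SD, n = 3 each). The 3 libraries of 1mlpa lay below the 3 of 1MWT, and those of 3mlpa below those of 3MWT.

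**Figure D1:**
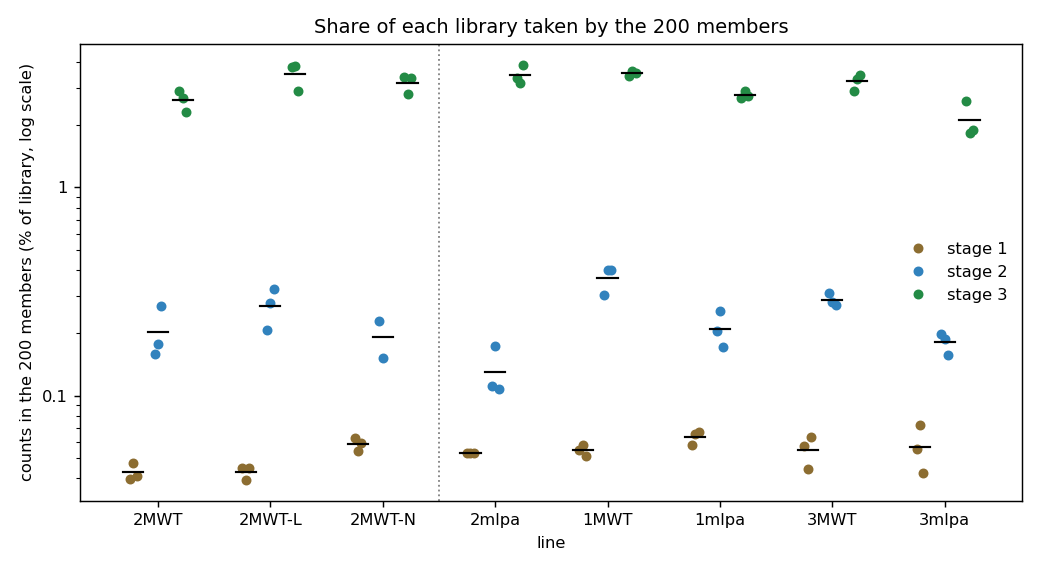
Share of all counts taken by the 200 genes, in percent on a log axis, in each library by line and stage; points are libraries, short lines are group means, and the dotted vertical line separates the 3 lines used for selection from the other 5. Dry seed libraries lie at or below 0.0720%, libraries at 8 h between 0.107 and 0.402% and libraries at emergence between 1.82 and 3.88%.

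Glyma.06G303200 (chromosome 6, 49264484 to 49268568, plus strand) had the highest rule value, 6.04. Over the selection libraries its lowest, median and highest levels were 1.43, 2.55 and 7.05 CPM in dry seed, 6.03, 17.3 and 38.1 CPM at 8 h and 846, 1091 and 2439 CPM at emergence. In the libraries of the other 5 lines the corresponding stage 3 values were 383, 1788 and 4111 CPM, against 4.14, 14.5 and 31.7 CPM at 8 h. Stages 2 and 3 did not overlap in either set of libraries, which the rule favours in the selection set. The log2 fold change between stages 2 and 3 was 5.74 to 7.11 over the 5 lines, with an adjusted p of 1.07e-07 or less in edgeR's quasi-likelihood test (Benjamini-Hochberg). The low end of its stage 3 range was set by 3mlpa, where the 3 libraries held 1109, 383 and 628 CPM.

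Glyma.19G219500 (chromosome 19, 47177441 to 47182159) had rank 2 by the rule and few or no counts before emergence. The 3 libraries of 2mlpa held no count at 8 h and 76.9, 63.1 and 99.9 CPM at emergence, a level at least 782-fold higher when the earlier stage is set to 3 counts per library. In 1MWT its level was 0 CPM in all 3 dry seed libraries, 0.592, 1.09 and 2.45 CPM at 8 h and 207, 261 and 252 CPM at emergence, at least 2230-fold above the dry seed. In 3mlpa it was at 71.7, 46.1 and 56.6 CPM at emergence, with the lowest value of the 5 lines.

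The other 10 genes among the 12 with the highest rule value were Glyma.06G035400, Glyma.15G002300, Glyma.12G100500, Glyma.13G319400, Glyma.U018900 (on an unplaced scaffold), Glyma.09G080100, Glyma.13G054700, Glyma.01G223100, Glyma.03G132700 and Glyma.07G244600. Their highest level at 8 h in any selection library was below their lowest level at emergence in every case. The rule ranked them on these same libraries, so this separation is favoured by the choice and is only a description. Glyma.U018900 had a median of 46.7 CPM at emergence in the selection libraries and 30.9 CPM in the others. The medians of Glyma.12G100500 were 1382 and 1069 CPM and those of Glyma.15G002300 51.8 and 61.2 CPM. Glyma.06G035400 differed most between the 2 sets of libraries, with medians of 193 and 27.5 CPM. Of these genes Glyma.01G223100 matches AT1G64110 and Glyma.13G319400 matches AT2G27830 in Arabidopsis.

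Levels between genes can be compared only per length of transcript. The 8 highest members at emergence per kilobase of exon were Glyma.06G305700 (813 CPM per kb), Glyma.03G132700 (633), Glyma.12G100500 (556), Glyma.06G303200 (524), Glyma.10G172200 (463), Glyma.11G164500 (453), Glyma.18G210900 (413) and Glyma.07G028500 (408). The last matches AVP1, the proton pumping pyrophosphatase that acidifies the vacuole. Glyma.06G305700 was already present before emergence: its median in the selection libraries was 53.7 CPM in dry seed, 314 CPM at 8 h and 3337 CPM at emergence, compared with 94.6, 359 and 3333 CPM in the other lines. Its log2 fold change between stages 2 and 3 was 2.45 to 3.32 over the 5 lines.

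**Figure D2:**
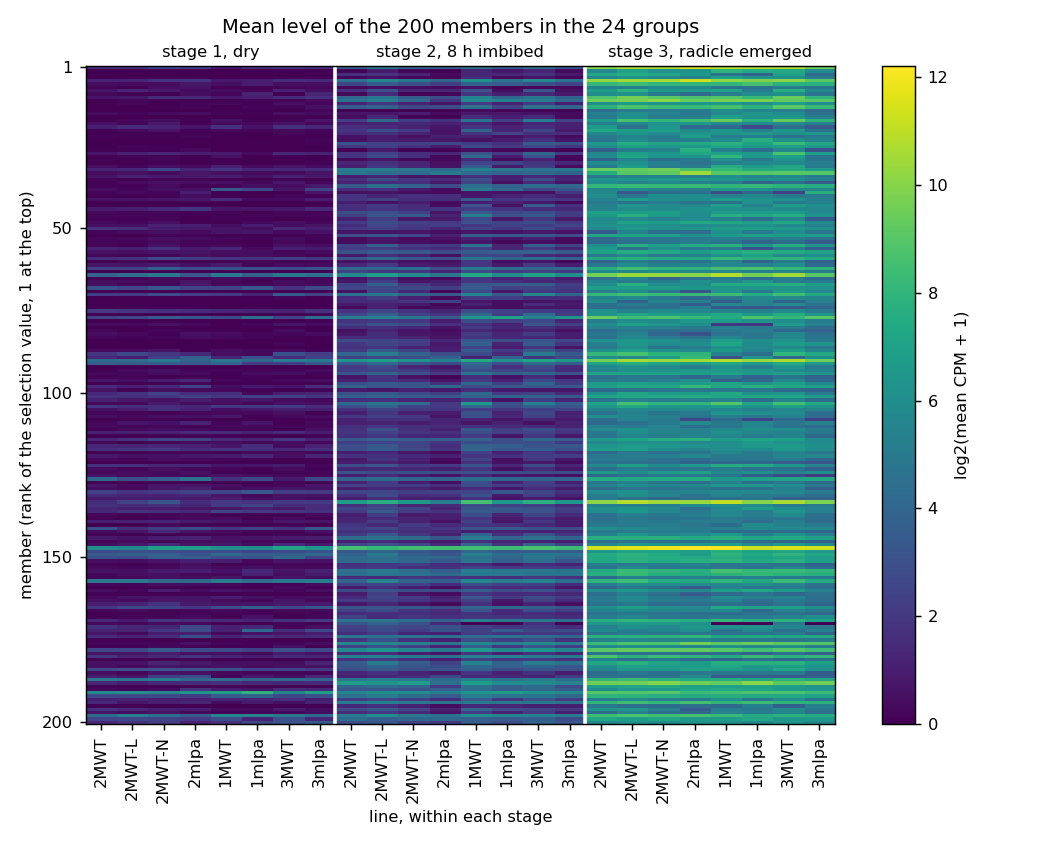
Level of the 200 genes (rows, ordered by the value of the rule) in every group of line and stage (columns), as log2 of the group mean CPM plus 1. The stage 3 columns are high in all 8 lines, and the dry seed columns are near 0 for most genes.

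The lines that took no part in the selection show whether the genes come on at emergence outside the lines that chose them. Nearly all did. Between 8 h and emergence, 197 genes rose in 1MWT (12.6% of all genes tested rose), 197 in 1mlpa (15.5%), all 200 in 3MWT (9.26%), 194 in 3mlpa (9.50%) and all but 1 in 2mlpa (17.6%). None fell, where 14.6, 14.8, 10.6, 10.2 and 16.8% of all genes tested did in these lines. Every member was tested except Glyma.08G261500 in 1MWT and 1mlpa. Here and below a call needed an adjusted p under 0.01 and a log2 fold change beyond 1 in edgeR's quasi-likelihood test. The median log2 fold change of the members was 3.15, 3.73, 3.30, 3.47 and 4.55 in these 5 lines, where the median over all genes was 0.00 to 0.06.

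Against the dry seed, 195 genes were higher at emergence in 1MWT (35.9% of all genes tested), 193 in 1mlpa (37.3%), 200 in 3MWT (33.2%), 190 in 3mlpa (28.9%) and 197 in 2mlpa (31.3%), again with none lower (25, 25.3, 20.5, 22.3 and 22.8%). Median log2 fold changes were 6.32, 6.24, 6.53, 5.26 and 5.56, beside 0.28 to 0.43 over all genes. In each of 3MWT and 2mlpa all 200 genes had stage 3 libraries above every earlier library of the line (51.5 and 59.0% of genes with at least 1 CPM), as had all but 1 in 1MWT (42.9%) and 1mlpa (58.0%) and 198 in 3mlpa (49.3%). A rise over both earlier stages in all 5 lines was called for 181 members (4.31% of all genes tested in the 5 lines). Ranking the genes by the same rule in 1 line at a time gave top 200 lists that shared 133 genes with this set in 2mlpa, 128 in 1MWT, 121 in 1mlpa, 143 in 3MWT and 118 in 3mlpa.

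**Figure D3:**
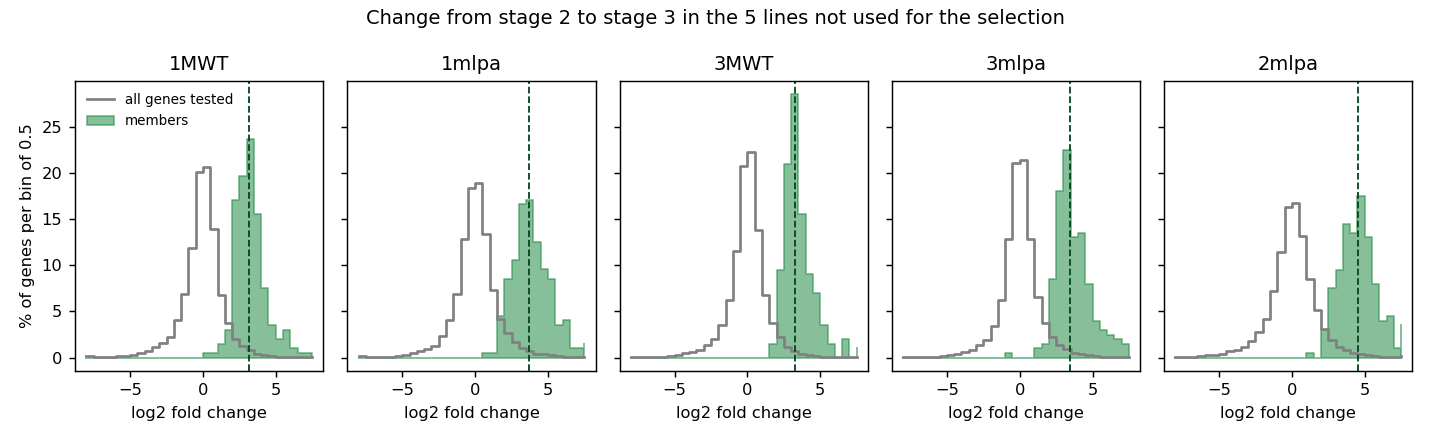
Distribution of the log2 fold change between stage 2 and stage 3 for the 200 genes and for all genes tested, as percent of genes per bin, in each of the 5 lines not used for selection; values beyond 8 in either direction sit in the end bins and the dashed line is the median of the 200 genes. Medians of the 200 genes are 3.15 to 4.55, and those of all genes 0.00 to 0.06.

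The exceptions differed between lines. Glyma.08G261500 (chromosome 8, 25674085 to 25676624), an ERF-family transcription factor gene that matches AT1G68550, reached 28.5, 42.7 and 17 CPM at emergence in 3MWT and 78.6, 80.8 and 64.3 CPM in 2mlpa. It stayed at 0.0503, 0.107 and 0.127 CPM in 1MWT, at 0, 0.0622 and 0 CPM in 1mlpa and at 0, 0 and 0.0665 CPM in 3mlpa. These 3 lines did not overlap with the others, and the gene was too low to be tested in 1MWT and 1mlpa. The level in 3MWT was at least 264-fold above that in 3mlpa with the latter set to 3 counts per library. Glyma.15G225300 was low in both lines of 1 cross: its stage 3 levels were 3.52, 3.67 and 1.80 CPM in 1MWT and 3.35, 2.99 and 2.33 CPM in 1mlpa. In 3MWT they were 98.7, 81.2 and 99.9 CPM, and the log2 fold change between stages 2 and 3 did not pass the test in 1MWT (0.07) or 1mlpa (0.86).

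Glyma.09G274000, a WRKY-family transcription factor gene, did not pass the stage 3 against stage 2 test in 2mlpa (log2 fold change 1.19) or 3mlpa (1.79). Its stage 3 levels were 5.38, 4.33 and 5.24 CPM in 2mlpa and 5.76, 3.19 and 2.83 CPM in 3mlpa. In 1MWT they were 19.3, 20.3 and 16.3 CPM, in 1mlpa 5.32, 3.79 and 4.60 CPM and in 3MWT 13.8, 19.0 and 18.4 CPM. All 9 libraries of the 3 lpa lines lay below the 6 of 1MWT and 3MWT, and the share of all genes with this pattern was not counted. They also lay below the selection libraries, where the lowest was 16.9 CPM. Those libraries chose the gene for a high level, so this part is favoured by the rule. The other members not called between these stages were Glyma.07G043100 in 1MWT, Glyma.10G245300 in 1mlpa, and Glyma.11G171400, Glyma.18G202800, Glyma.13G321500 and Glyma.02G136000 in 3mlpa.

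The smallest mean changes between stages 2 and 3 over the 5 lines belonged to Glyma.07G258100 (1.12 to 3.08 on the log2 scale), Glyma.17G230700 and Glyma.02G075100. Glyma.02G075100 matches SUC2, which in Arabidopsis loads sucrose into the phloem. In 1mlpa its level was 257, 196 and 255 CPM in dry seed, 112, 126 and 83.0 CPM at 8 h and 495, 411 and 455 CPM at emergence. The libraries at 8 h were the lowest and those at emergence the highest, without overlap. Relative to the bulk of genes the direction against the dry seed was the opposite in 1mlpa, so it depends on the scaling. There the log2 fold change was -0.91 (adjusted p 0.00315, edgeR quasi-likelihood test), short of a call only by the fold cutoff. The direction also depended on the scaling for this gene in 1MWT (-0.05) and 3mlpa (-0.24) and for Glyma.17G230700 in 1mlpa (-0.26), none of which was called. Glyma.02G075100 was the member called against both earlier stages in the fewest of the 5 lines, 1 of 5.

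Many of the genes were already higher at 8 h than in the dry seed, a contrast that also holds the difference in sterilization, tissue and grinding. From dry seed to 8 h, 148 rose in 1MWT (29.1% of all genes tested rose), 114 in 1mlpa (27.8%), 131 in 3MWT (25.5%), 78 in 3mlpa (17.9%) and 63 in 2mlpa (18.1%). In these lines 5, 9, 0, 7 and 11 fell (18.2, 16.5, 13.4, 13.8 and 11.3%). The median log2 fold change was 3.10 in 1MWT and 2.95 in 3MWT, and 2.14 in 1mlpa, 1.74 in 3mlpa and 1.02 in 2mlpa, beside 0.11 to 0.33 over all genes. A rise by 8 h was called in all 5 lines for 48 genes (9.90% of all genes tested in the 5 lines), in 4 lines for 29, in 3 for 34, in 2 for 24, in 1 for 28 and in none for 37. The level at 8 h was small beside that at emergence in every line, with a median of 9.68% of it in 1MWT, 8.05% in 3MWT, 6.76% in 3mlpa, 5.48% in 1mlpa and 2.80% in 2mlpa. In 3MWT the count of 131 fell to 84 when only the libraries of the compared groups were fitted.

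Among the annotated members, 35 could be given a role. A rise over both earlier stages in all 5 lines was called for 181 of the 200 members and 4.31% of all genes tested. The counts per role given here and below are therefore not read as a trait of a role. The 5 chloroplast genes rose in all 5 lines between stages 2 and 3 and over the dry seed. They include Glyma.12G222200, which matches PORA, the enzyme that reduces protochlorophyllide in the light and accumulates in dark grown tissue in Arabidopsis. Its stage 3 levels were 258, 539 and 444 CPM in 3MWT, 258, 37.6 and 53.2 CPM in 3mlpa, 92.2, 134 and 131 CPM in 1MWT and 96.2, 109 and 104 CPM in 1mlpa, and its log2 fold change over 8 h was 3.73 to 5.75. In 3mlpa replicate 1 was level with the lowest 3MWT library and the other 2 lay well below it. Glyma.15G011500, a plastid ATP/ADP carrier that brings energy into the plastid, had stage 3 levels of 175, 178 and 158 CPM in 1MWT and 76.9, 79.4 and 65.2 CPM in 1mlpa, without overlap. The others were Glyma.03G119500 (a cyclase of chlorophyll synthesis), Glyma.06G020400 (plastocyanin, the copper electron carrier of photosynthesis) and Glyma.09G187800 (HCF101, which assembles iron-sulphur clusters for photosystem I in Arabidopsis). Their stage 3 medians in the selection libraries were 21, 24.1 and 31.2 CPM.

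Of 5 transport genes 4 rose over both earlier stages in all 5 lines (4.31% of all genes tested), the exception being the SUC2 match. The AVP1 match Glyma.07G028500 had lowest, median and highest stage 3 levels of 543, 1065 and 1660 CPM in the selection libraries. Glyma.20G204000, the PHT1;7 match, belongs to a family that takes up phosphate and had a stage 3 median of 130 CPM in the selection libraries and 106 CPM in the others, and rose by 2.04 to 3.58 on the log2 scale over 8 h. An ABCC-type transporter gene, Glyma.08G194700, of the family to which MRP proteins belong, had medians of 1.49 CPM at 8 h and 24.1 CPM at emergence and rose by 3.36 to 5.20. A WAT1-related transporter gene, Glyma.03G172900, had no count in most dry seed libraries and rose by 3.35 to 6.70.

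Of the 9 genes of reserve and metabolite breakdown, 6 rose over both earlier stages in all 5 lines (4.31% of all genes tested). Glyma.16G016000 matches purple acid phosphatase 29, of a family that releases phosphate from organic compounds, and had selection library medians of 11, 9.89 and 158 CPM over the 3 stages. Its range at 8 h overlapped that of the dry seed there. Glyma.18G202800 matches acyl-CoA oxidase 4 of fatty acid beta-oxidation, with a stage 3 median of 24 CPM in the selection libraries and 11.5 CPM in the others. Glyma.01G215100 (phospholipase D beta 1, a membrane lipid hydrolase) and Glyma.09G195100 (a subtilase, a serine protease) rose by 2.73 to 4.75 and by 3.31 to 4.32 on the log2 scale over 8 h. The remaining genes of this group, for a vacuolar processing enzyme, an alpha-glucosidase, a methionine gamma-lyase, an aminotransferase and an alpha-dioxygenase, are described with the lpa lines.

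All 6 cell wall and surface genes rose over both earlier stages in all 5 lines (4.31% of all genes tested). Glyma.14G138300 matches the arabinose kinase ARA1, which recycles a cell wall sugar, and had a stage 3 median of 316 CPM in the selection libraries and 261 CPM in the others. Glyma.12G217300 matches RD22, a dehydration-responsive gene of Arabidopsis, with stage 3 medians of 63.2 and 118 CPM. Glyma.10G001800, a 3-ketoacyl-CoA synthase gene of very long chain fatty acid elongation, had no count in any selection library of dry seed and a median of 24.4 CPM at emergence. The group also holds a lipid transfer protein gene, Glyma.02G088900, a class III peroxidase gene, Glyma.05G103600, and the expansin-like gene Glyma.05G065700.

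Of the 10 genes for regulators 8 rose over both earlier stages in all 5 lines (4.31% of all genes tested), with Glyma.08G261500 and Glyma.09G274000 as the exceptions already given. Glyma.05G032200, a MYB-related factor, had lowest, median and highest stage 3 levels of 165, 207 and 317 CPM in the selection libraries and 24.9 CPM as its median at 8 h, and rose by 2.25 to 2.96 on the log2 scale. In the same libraries the stage 3 median was 185 CPM for Glyma.02G217800 (bHLH93), 136 CPM for Glyma.13G248000 (a B-box factor) and 104 CPM for Glyma.05G179900 (an ERF-family factor). The group also holds a pair of hormone genes. Glyma.08G272500 matches the abscisic acid receptor PYR1, and Glyma.04G055600 matches CKX7, a cytokinin-degrading oxidase, with stage 3 medians of 38.9 and 54.3 CPM in the selection libraries.

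Comparing each lpa line with its normal comparator asks whether the genes come on to the same level. At 8 h most members had a negative log2 fold change in both lines with mips1, and more were called lower than higher. In 1mlpa 48 were lower than in 1MWT and 3 higher (1.61 and 2.03% of all genes tested), with a median log2 fold change of -0.70 beside -0.02 over all genes and a negative value for 158. The count of 48 was 31 when only the libraries of the compared groups were fitted. In 3mlpa 9 were lower than in 3MWT and 0 higher (0.433 and 0.381%), with a median of -0.66 beside 0.00 and a negative value for 169. For 82 of the 200 the unadjusted p was under 0.05, and the share of all genes at that cut was not counted. The count of 9 moved to 52 when only the libraries of the compared groups were fitted and to 32 with DESeq2. Leaving out 1 library gave 2 (without 3mlpa replicate 3) to 6 (without 3mlpa replicate 1). The summed share at 8 h was 0.210% ± 0.041 in 1mlpa and 0.369% ± 0.055 in 1MWT, and 0.180% ± 0.022 in 3mlpa and 0.287% ± 0.020 in 3MWT (SD, n = 3 each), without overlap in either pair.

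At emergence fewer members than at 8 h were called in 1mlpa, and about as many in 3mlpa. In 1mlpa 15 were lower and 6 higher (0.661 and 4.29% of all genes tested), with a median log2 fold change of -0.32 beside -0.04 and a negative value for 125. In 3mlpa 7 were lower and 3 higher (0.752 and 2.89%), with a median of -0.62 beside -0.06 and a negative value for 166. Leaving out 1 library gave from 4 lower genes in 1mlpa (without 1mlpa replicate 1) to 11 (without 1mlpa replicate 2). In 3mlpa it gave 3 lower genes without 3mlpa replicate 2 and 17 without 3mlpa replicate 1. Of the 48 genes lower in 1mlpa at 8 h, 12 were also lower at emergence (0.239% of all genes tested were lower at both stages) and 36 were not called. In dry seed 15 members were higher and 13 lower in 1mlpa (4.43 and 4.12%), and 14 higher and 4 lower in 3mlpa (2.86 and 1.21%). Fitted on the compared groups alone the dry seed calls fell to 2 higher and 2 lower members in 1mlpa and to none in 3mlpa. Leaving out 1 library moved the 14 to between 3 (without 3mlpa replicate 1) and 26 (without 3mlpa replicate 2), the 4 to between 1 and 6 (without the same libraries) and the 13 to between 6 (without 1mlpa replicate 3) and 11 (without 1MWT replicate 1).

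**Figure D4:**
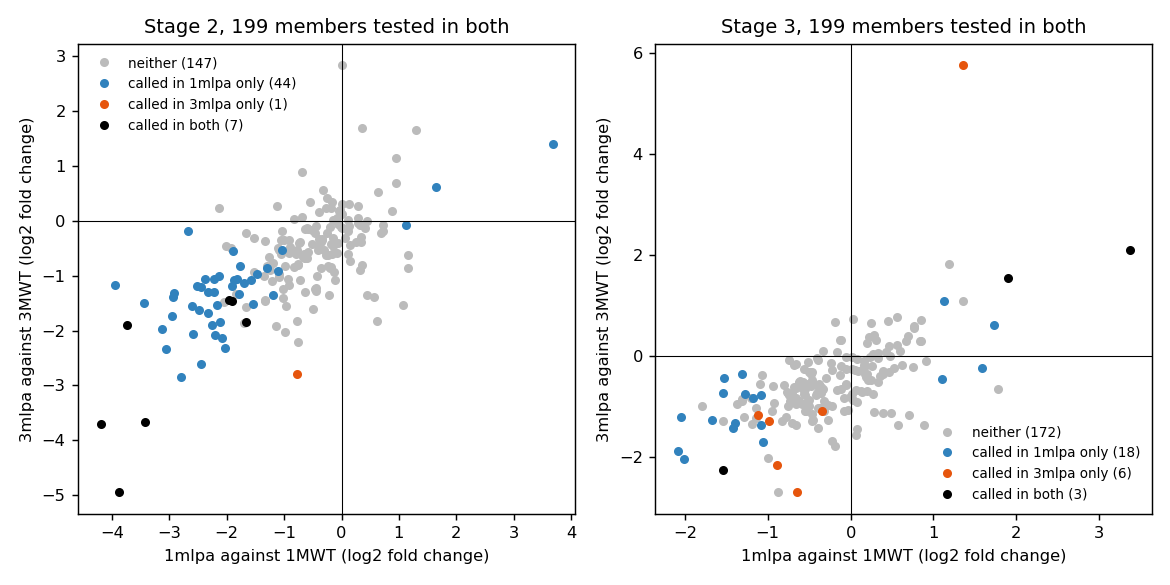
Log2 fold change of 1mlpa against 1MWT (horizontal axis) and of 3mlpa against 3MWT (vertical axis) for the members tested in both pairs, at 8 h and at emergence, with members called in both pairs marked. Most points lie below 0 on both axes: 142 genes at 8 h and 120 at emergence, where 32.9 and 40.1% of all genes tested in both pairs do.

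Transcripts of late embryogenesis abundant (LEA) proteins, which mark the dry seed state, were summed over 6 genes. The paper singled these genes out among those differentially expressed in both mips1 pairs, and reports most of them as higher in 1mlpa and 3mlpa. Higher sums in these lines are therefore favoured by the choice of genes, and the sums are not an independent marker. All 6 genes were above 0 in every group. Their summed level at 8 h was 15783 to 19959 CPM in 1mlpa and 10898 to 11673 CPM in 1MWT, and 17161 to 17648 CPM in 3mlpa and 14048 to 16028 CPM in 3MWT. At emergence it was 1340 to 1673 CPM in 1mlpa against 374 to 1008 CPM in 1MWT, and 2018 to 2822 CPM in 3mlpa against 1172 to 1541 CPM in 3MWT. The lpa libraries were above their comparators at both stages. In dry seed both pairs overlapped, with 20716 to 25462 CPM in 1mlpa and 13804 to 26401 CPM in 1MWT. There 3mlpa held 11443 to 25530 CPM and 3MWT 25146 to 30616 CPM, with the lower mean in 3mlpa (16933 against 27581 CPM). The part of LEA transcripts in the lower member levels was not tested. The summed level of 4 storage protein genes did not separate the lines in the same way, with 140 to 236 CPM in 1mlpa and 180 to 350 CPM in 1MWT at 8 h. It was 294 to 476 CPM in 3mlpa and 266 to 326 CPM in 3MWT.

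Both lines with mips1 had 7 members in common among those lower at 8 h (0.0997% of all genes tested in both pairs), 14.6% of the 48 and 77.8% of the 9. They were Glyma.09G080100, Glyma.15G133700, Glyma.03G040600, Glyma.13G002700, Glyma.14G138300, Glyma.03G168500 and Glyma.05G179900. Across the members tested in both, the effects in the 2 pairs had a Pearson correlation of 0.66 at 8 h and 0.62 at emergence, against 0.41 and 0.64 over 30088 genes. This correlation is across genes, which are not independent, and within a pair all genes share the same libraries.

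Glyma.15G133700 (chromosome 15, 10744186 to 10748830, minus strand) matches an alpha-glucosidase, an enzyme that frees glucose from starch-derived sugars. At 8 h it was at 13.4, 24.1 and 15.6 CPM in 1MWT and 0.900, 1.72 and 0.333 CPM in 1mlpa, and at 8.21, 6.10 and 7.99 CPM in 3MWT and 0.393, 0.145 and 0.0728 CPM in 3mlpa. At emergence the values were 290, 276 and 237 CPM in 1MWT, 72.2, 113 and 87.0 CPM in 1mlpa, 95.2, 115 and 165 CPM in 3MWT and 47.2, 11.7 and 16.1 CPM in 3mlpa. The lpa libraries lay below their comparators at both stages in both pairs. The log2 fold change was -3.88 ± 0.37 (SE) in 1mlpa and -4.95 ± 0.70 in 3mlpa at 8 h, with adjusted p of 7.94e-06 and 0.000553 in edgeR's quasi-likelihood test. At emergence it was -1.54 ± 0.30 and -2.24 ± 0.52, with adjusted p of 0.0021 and 0.00999. The stage 3 call in 3mlpa was at the threshold and was lost with DESeq2 (adjusted p = 0.096), with the replicate block (0.0112) and without either 3mlpa replicate 2 (0.0673) or replicate 3 (0.0754). It was also lost without any 1 of the 3MWT libraries (0.0210 to 0.0524), and that in 1mlpa without replicate 1 or 2 of 1MWT or replicate 1 or 3 of 1mlpa (0.0108 to 0.0170).

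Glyma.03G040600 (chromosome 3, 5113019 to 5121557, plus strand) matches PYD4, an aminotransferase of pyrimidine breakdown in Arabidopsis. Its levels at 8 h were 10.8, 9.20 and 12.6 CPM in 1MWT, 1.5, 0.491 and 0.481 CPM in 1mlpa, 3.65, 3.00 and 3.70 CPM in 3MWT and 0.197, 0.327 and 0.182 CPM in 3mlpa. Neither pair overlapped, and the log2 fold changes were -3.43 ± 0.43 and -3.67 ± 0.49 (adjusted p 0.000103 and 0.000343, edgeR quasi-likelihood test). At emergence it stood at 172, 195 and 219 CPM in 1MWT, 114, 97.4 and 101 CPM in 1mlpa, 89.0, 205 and 169 CPM in 3MWT and 38.6, 15.3 and 42.7 CPM in 3mlpa. The pairs still did not overlap, and the call held in 3mlpa alone (-2.14 ± 0.37, adjusted p 0.000912). The difference between the 2 stage 3 effects, 1.25 ± 0.54, did not pass the test (adjusted p 0.516).

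Glyma.09G080100 (chromosome 9, 9210269 to 9214364, minus strand), with no match in the annotation, was at 6.63, 7.01 and 8.06 CPM in 1MWT and 0.433, 0.491 and 0.0370 CPM in 1mlpa at 8 h. In 3MWT it was at 5.96, 6.95 and 11 CPM and in 3mlpa at 0.918, 0.399 and 0.291 CPM. Both pairs were apart at 8 h, by -4.19 ± 0.49 (adjusted p 6.02e-05) and -3.70 ± 0.73 (adjusted p 0.0097) in edgeR's quasi-likelihood test. The second call was lost without any 1 library of the pair, with adjusted p of 0.0202 to 0.0808, and with the replicate block (0.0131). At emergence 1MWT held 150, 138 and 112 CPM and 1mlpa 37, 34.6 and 22.3 CPM, a log2 fold change of -2.08 ± 0.35 (adjusted p 0.00067). In 3mlpa replicate 1 stood apart from the others, with 113 CPM beside 8.72 and 29.6 CPM, and all 3 were below the 161, 228 and 187 CPM of 3MWT.

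A few members were higher in the lpa lines. Glyma.13G001200 (chromosome 13, 417299 to 420713, minus strand) matches methionine gamma-lyase, which breaks down methionine. At emergence it was at 5.78, 9.09 and 6.85 CPM in 1MWT and 58.5, 74.2 and 87.0 CPM in 1mlpa, and at 16, 15.7 and 20.1 CPM in 3MWT and 46.2, 58.4 and 95.2 CPM in 3mlpa. Every lpa library lay above its comparators, by 3.37 ± 0.36 (adjusted p 2.64e-05) and 2.09 ± 0.39 (adjusted p 0.00198) on the log2 scale in edgeR's quasi-likelihood test. In 2mlpa it reached 94.5, 351 and 391 CPM, against a highest value of 189 CPM in the selection libraries. The call in 3mlpa was lost without 3mlpa replicate 3 (adjusted p 0.0209), 3MWT replicate 1 (0.0171) or 3MWT replicate 2 (0.0175).

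Glyma.19G011700 matches alpha-dioxygenase 1, which oxidises fatty acids in defence responses of Arabidopsis. Its stage 3 levels were 9.46, 8.41 and 15.9 CPM in 1MWT and 27, 39 and 57.9 CPM in 1mlpa, and 11.9, 11.5 and 18.9 CPM in 3MWT and 46.7, 29.3 and 38.9 CPM in 3mlpa. It was higher in both lpa lines without overlap, by 1.90 ± 0.40 (adjusted p 0.00356) and 1.56 ± 0.35 (adjusted p 0.00905) in edgeR's quasi-likelihood test, though the second call was lost without any 1 of the 6 libraries (adjusted p 0.0154 to 0.0649) and with the replicate block (0.0183). The first was lost without replicate 1 or 2 of 1MWT or replicate 2 or 3 of 1mlpa (0.0106 to 0.0443). With Glyma.13G001200 it was 1 of 2 members higher in both pairs at emergence (1.66% of all genes tested in both), and Glyma.15G133700 was the only one lower in both (0.0931%). Of the members tested in both pairs, 18 were called in 1mlpa alone, 6 in 3mlpa alone and 172 in neither. The shares of all genes in these 3 classes were not counted, so the counts are not read as a trait of the members.

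**Figure D5:**
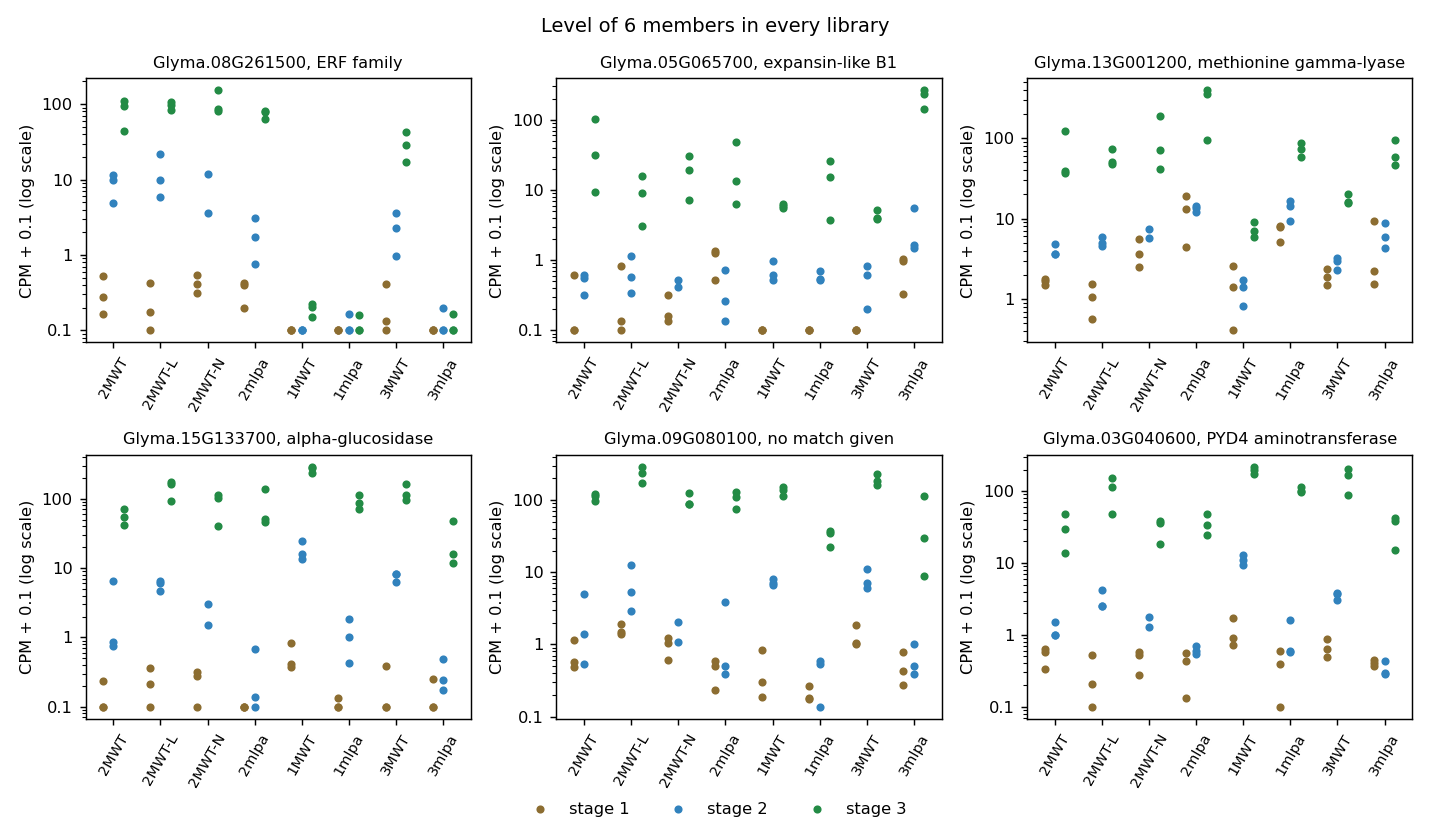
CPM plus 0.1 on a log axis in every library of the 8 lines, by stage, for Glyma.08G261500, Glyma.05G065700, Glyma.13G001200, Glyma.15G133700, Glyma.09G080100 and Glyma.03G040600; points are libraries. Glyma.08G261500 stays below 0.2 CPM at emergence in 1MWT, 1mlpa and 3mlpa, and Glyma.05G065700 reaches 142 to 262 CPM in 3mlpa.

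Other members with large stage 3 differences were called in 1 pair. Glyma.17G230700 matches the gamma vacuolar processing enzyme, a protease that matures and degrades vacuolar proteins. It was at 0.809, 1.55 and 0.995 CPM in dry seed of 1MWT and 13.8, 22.1 and 14.8 CPM in 1mlpa, and at 19.7, 29.5 and 20.4 CPM and 50.9, 49.5 and 49 CPM at emergence. The lines did not overlap at either stage, with log2 fold changes of 4.16 ± 0.24 (adjusted p 3.63e-09) and 1.13 ± 0.20 (adjusted p 0.000878) in edgeR's quasi-likelihood test. The stage 3 call was lost without 1MWT replicate 1 (adjusted p 0.0104). Glyma.04G042400, which matches AT5G24080, was at 17.8, 19.8 and 26.9 CPM in 1MWT and 67.4, 60.8 and 83.4 CPM in 1mlpa at emergence, apart by 1.74 ± 0.28 (adjusted p 0.000806).

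Lower in 1mlpa at emergence were both hormone genes and the WRKY gene. Glyma.08G272500, the PYR1 match, was at 10.5, 10.5 and 10.1 CPM in 1MWT and 3.03, 3.19 and 2.44 CPM in 1mlpa at 8 h, and at 78.4, 73.6 and 61.9 CPM and 21.8, 31.4 and 26.9 CPM at emergence. Without overlap at either stage, the log2 fold changes were -1.57 ± 0.26 (adjusted p 0.000844) and -1.39 ± 0.24 (adjusted p 0.000821) in edgeR's quasi-likelihood test. The cytokinin oxidase match Glyma.04G055600 was at 36.5, 38.8 and 31.1 CPM in 1MWT and 15, 16.3 and 12.1 CPM in 1mlpa at emergence, a log2 fold change of -1.28 ± 0.27 (adjusted p 0.0034). The calls of these hormone genes were not checked singly with left-out libraries or the other alternatives. For the WRKY gene Glyma.09G274000 the log2 fold change was -2.01 ± 0.30 (adjusted p 0.000559). Glyma.13G256000 stood at 13.5, 31.9 and 47.2 CPM in 1MWT and 6.70, 9.05 and 6.44 CPM in 1mlpa (-2.04 ± 0.39, adjusted p 0.00172), and its call was lost without 1MWT replicate 3 (adjusted p 0.0138), 1mlpa replicate 1 (0.0116) or 1mlpa replicate 3 (0.0156). The AVP1 match Glyma.07G028500 held 1765, 1993 and 1546 CPM in 1MWT and 764, 982 and 719 CPM in 1mlpa (-1.09 ± 0.22, adjusted p 0.0029). Leaving out 1 library took this call away in 4 of 6 cases, with adjusted p up to 0.0238.

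Glyma.05G065700 (chromosome 5, 6436329 to 6439191, minus strand), which matches expansin-like B1 of the wall-loosening expansin superfamily, was highest in 3mlpa. At emergence it was at 262, 142 and 231 CPM in 3mlpa and at 3.75, 3.94 and 5.02 CPM in 3MWT. The corresponding values were 3.65, 25.4 and 15 CPM in 1mlpa and 6.21, 5.52 and 5.74 CPM in 1MWT. Only the first pair was free of overlap, with a log2 fold change of 5.75 ± 0.60 (adjusted p 1.26e-05), whereas that of 1mlpa was 1.36 ± 0.47 (adjusted p 0.0754). The effect in 1mlpa minus that in 3mlpa was -4.40 ± 0.74 (adjusted p 0.00181, edgeR quasi-likelihood test). It was the only member for which the 2 effects at emergence were called different (0.123% of all genes tested in that direction, 0.148% in the other). For 19 members the unadjusted p was under 0.05, and the share of all genes at that cut was not counted.

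Glyma.06G035400, rank 3 by the rule, was at 103, 156 and 135 CPM in 3MWT and 12, 15.2 and 27.8 CPM in 3mlpa at emergence, apart by -2.69 ± 0.33 (adjusted p 0.000117, edgeR quasi-likelihood test). In the other cross both lines were low, with 17.4, 27.5 and 24.5 CPM in 1MWT and 15.8, 17.2 and 11.1 CPM in 1mlpa. The range of 3mlpa thus overlapped those of 1MWT and 1mlpa and not that of 3MWT.

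The increase between 8 h and emergence was also compared between the lines of a pair. The change was called different for no member in either pair by edgeR's quasi-likelihood test, where 0.106% of all genes tested had a greater increase in 1mlpa than in 1MWT and 0.127% in 3mlpa than in 3MWT, and 0.0193 and 0.00651% a smaller one. At an unadjusted p under 0.05 there were 69 and 20 members, and DESeq2 called 21 and 2. The shares of all genes at that unadjusted cut and with DESeq2 were not counted. The median difference in log2 fold change was 0.49 in 1mlpa and 0.12 in 3mlpa, beside 0.03 and -0.03 over all genes.

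For 2mlpa the comparators are the lines that chose the genes, so its values are a description. At 8 h the median log2 ratio of 2mlpa to the 3 comparators was -0.70 beside -0.30 over all genes, 181 of 200 members were below the comparators (80.0% of all genes were) and 44 had all 3 libraries of 2mlpa below all 8 of the comparators (21.1%). Glyma.13G001200 and Glyma.02G136000 were above (3.14%). Glyma.03G132700, with 8.06 to 53.8 CPM in the selection libraries at 8 h, stood at 1.24, 6.57 and 1.2 CPM. At emergence the median ratio was -0.16 beside -0.02, with 8 members below all comparator libraries (3.23%), among them Glyma.09G274000 and Glyma.13G248000, and 3 above (2.53%), namely Glyma.06G124000, Glyma.07G121900 and Glyma.03G122500. LEA transcripts at 8 h summed to 17305 to 20734 CPM in 2mlpa and 10926 to 16361 CPM in the comparators, and storage transcripts to 4844 to 6350 CPM against 427 to 2122 CPM. The paper singled the storage genes out for a difference between 2mlpa and these same comparators, so their separation is favoured by that choice. The part of LEA and storage transcripts in the lower levels was not tested.

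Over the 8 lines the stage 3 level of a member varied by a median of 1.39 on the log2 scale between the lowest and the highest line mean, by under 1 for 38 members and by over 3 for 14. The widest ranges belonged to Glyma.08G261500 (6.72), Glyma.05G065700 (5.34), Glyma.13G001200 (5.09), Glyma.15G225300 (5.02), Glyma.02G228100 (4.64) and Glyma.07G076200 (4.24). Line 3mlpa was the lowest for 90 members and 2MWT for 42, and 1MWT was the highest for 53 and 2MWT-L for 42. The levels of 2MWT, 2MWT-L and 2MWT-N chose the members, so the rule favours lower levels in lines outside the selection. These ranks were not counted over all genes. The median coefficient of variation between replicates at emergence was 11.4% in 1MWT, 16.1% in 1mlpa and 17.2% in 3MWT, and 22.3 to 27.2% in the other 5 lines.

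In gene structure and position the members showed little in common. Their median exon length was 1993 bases (2084 for the 10864 genes from which they were taken), and 12% had a single exon block (6.72%). They lay on all 20 chromosomes and 1 scaffold, from 1.65 per 1000 genes on chromosome 18 to 6.13 on chromosome 15. Only 2 pairs were direct neighbours in the gene order, Glyma.13G054700 with Glyma.13G054800 and Glyma.15G002200 with Glyma.15G002300. Reads shared between near-identical copies, which are common in the duplicated soybean genome, could make the counts of such neighbours uncertain.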

How the data were processed

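mRNA of 72 seed samples was sequenced as paired reads. The authors deposited 2 tables of raw read counts per gene, 1 for 2mlpa and its comparators and 1 for the other 4 lines. They were made with STAR 2.5.2b and featureCounts 1.5.1 per the submitters' processing notes, on Wm82.a2.v1 gene models. Reads of near-identical genes may be split or lost by such counting.

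CPM was the count over the library total times 1000000. Tests used edgeR 4.0.16 in R 4.3.3 (quasi-likelihood, TMM, SE from the F statistic) on genes with a mean normalized count over 10, with 1 fit for each set of crossed lines (18, 18 and 36 libraries) and 1 fit over 36 libraries to compare the effects of the mips1 lines. P-values were adjusted by Benjamini-Hochberg over all genes tested, and calls needed an FDR below 0.01 with a log2 change beyond 1 in either direction, or the FDR alone for differences between effects. The fits were checked with known changes before use. The near-empty library stayed in the MRP fit and was left out as an alternative chosen after seeing the data. Fold bounds set groups of 3 or fewer counts per library to 3 counts.

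The members and all lists were chosen with earlier results of these data known. Genes were named by rule: the 12 highest rule values, the 8 highest CPM per kb, the members called at stage 3 in both mips1 lines, the 4 with the largest fold change called in 1 of them, the 3 smallest changes, and the pairs of genes just inside and outside the set. Others, including the role groups, were named after their values were seen. Keyword lists of pathways matched at most 1 member each and named none. Alternatives were DESeq2 1.42.0, RLE scaling, other filters, a replicate block, fits on the compared groups alone, each library left out, and other settings of the rule. No sequences were used here.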

Additional observations from a re-analysis of the deposited data

Results flagged for a closer look

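Glyma.05G065700, the expansin-like gene, had effects at emergence that differed between the lines with mips1. The effect of 1mlpa against 1MWT minus that of 3mlpa against 3MWT was -4.40 on the log2 scale, called at an adjusted p of 0.00181 by edgeR's quasi-likelihood test of the difference.

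Glyma.13G054700 moved in opposite directions in the 2 pairs at emergence. It was at 68.7, 69.0 and 51.8 CPM in 1mlpa and 34.2, 33.5 and 36 CPM in 1MWT, all 3 lpa libraries above, with a log2 fold change of 0.88 (adjusted p 0.107). In 3mlpa it was at 14.5, 21.5 and 36 CPM against 60.9, 77.8 and 65.8 CPM in 3MWT, all 3 lpa libraries below, with a log2 fold change of -1.36 (adjusted p 0.228). Neither effect was called by edgeR's quasi-likelihood test, and their difference of 2.24 ± 0.76 did not pass the test either (adjusted p 0.26).

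Groups of 3 libraries are too small for a test of single outlying samples.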

How the results depend on the processing

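The counts of members higher at emergence than at 8 h or in dry seed stayed within 1.5 times of those reported in all 5 lines under every alternative. No gene named by rule reversed direction under these alternatives in a comparison called in the reported fits. Uncalled comparisons, and genes named after their values were seen, were not checked singly. These alternatives all scale to the bulk of genes. On CPM Glyma.02G075100 (1MWT, 1mlpa and 3mlpa) and Glyma.17G230700 (1mlpa) were higher at emergence than in dry seed where the fits gave negative values. Counts between low and normal phytic acid lines moved more. Fitted on the compared groups alone, they became 2 higher and 2 lower in 1mlpa dry seed, 0 and 0 in 3mlpa dry seed, 31 lower in 1mlpa and 4 higher and 52 lower in 3mlpa at 8 h, 26 lower in 1mlpa and 14 lower in 3mlpa at emergence, and 4 and 1 with a greater increase from stage 2 to 3. The same fits gave 1 member lower at 8 h than in dry seed in 1MWT, 84 higher in 3MWT and 2 lower in 3mlpa, and 1 and 2 members for the difference between pairs. With DESeq2 the counts in 3mlpa were 13 lower at 8 h than in dry seed, 28 higher in dry seed, 1 higher and 32 lower at 8 h and 14 lower at emergence, and 21, 2 and 1 for the greater increases in 1mlpa and 3mlpa and the difference between pairs. The replicate block gave 6 higher in dry seed and 5 lower at 8 h in 3mlpa. Same-numbered libraries deviated together (every correlation over 0.1) only for 1mlpa and 1MWT dry seed, and the block moved no other count by over 1.5 times. Without a filter there was 1 member higher in 3mlpa at 8 h and 8 with a greater increase in 1mlpa, and with RLE scaling 1.

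Leaving out 1 library gave 2 to 6 members lower at 8 h than in dry seed in 1MWT, 0 to 1 in 3MWT and 5 to 15 in 3mlpa. In dry seed it gave 6 to 11 lower in 1mlpa and 3 to 26 higher and 1 to 6 lower in 3mlpa. At 8 h 2 to 6 were lower in 3mlpa. At emergence 2 to 6 were higher and 4 to 11 lower in 1mlpa, and 1 to 2 higher and 3 to 17 lower in 3mlpa. Greater increases in 1mlpa numbered 0 to 1 and differences between pairs 0 to 2.

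The rule kept 118 of the 200 members with a minimum of 50 CPM and 143 to 196 under other settings on the selection lines or in 3MWT. Applied to 2mlpa, 1MWT, 1mlpa and 3mlpa it shared 133, 128, 121 and 118. Levels under about 3 counts per library could not be resolved, which limits folds over the dry seed.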
